A study of Rattus norvegicus with 16 samples.

Results

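The genes described here carry or control sodium reabsorption in the late distal convoluted tubule, the connecting tubule and the collecting duct: the 3 subunits of the epithelial sodium channel ENaC (Scnn1a, Scnn1b and Scnn1g, the α, β and γ subunits), the thiazide-sensitive sodium-chloride cotransporter NCC (Slc12a3), and 6 of their regulators (Prss8, Sgk1, Nr3c2, Hsd11b2, Wnk1 and Wnk4). They are 10 named genes, looked up in the probe annotation of the Affymetrix RaGene-2_0-st array among 36685 TranscriptClusterIDs (the gene-level rows of this array), of which 18511 carry 1 gene symbol. Where a symbol had several rows, the row with the highest mean was taken. Of the 10 genes, 9 had a row of their own. Wnk4 lies on 3 rows that are each annotated to several genes, so no value is given for it.

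The tissue was a slice of the superficial renal cortex from 16 rats (male, Sprague Dawley, 7 weeks of age by the labels). Each rat has its own array, and the 4 groups hold 4 rats each. FHS rats drank 20% fructose for 7 days and ate a high-salt chow with 4% NaCl, CHS rats ate the same high-salt chow with plain water, FNS rats drank 20% fructose and ate a normal-salt chow, and CNS rats had the normal-salt chow with water. The 2 chows came from different makers and differ in protein, carbohydrate and energy as well as in NaCl, so salt and the rest of the chow cannot be told apart, and "high-salt" below names the chow. The rats were housed in pairs and the labels name no cages, so p-values treat the rats as independent.

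In the aldosterone-sensitive part of the nephron, sodium enters the cell from the urine through NCC in the distal convoluted tubule and, further along, through ENaC. Aldosterone binds the mineralocorticoid receptor encoded by Nr3c2, and the enzyme encoded by Hsd11b2 inactivates glucocorticoids in the same cells so that they do not occupy that receptor. Sgk1, a kinase induced by these steroids, keeps ENaC at the cell surface, and the membrane protease prostasin (Prss8) activates the channel by cleaving the γ subunit. The WNK kinases act on NCC through the kinase SPAK.

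Values are RMA log2 values, so a difference of 1 is a doubling. Values of different genes come from different probes and are not set against each other as amounts. Array medians lay between 5.25 and 5.44, those of the FHS arrays at 5.33 and above, and the pairwise correlations of the 16 arrays lay between 0.968 and 0.990. In bulk cortex, fewer cells of a type and less RNA per cell cannot be told apart. The distal convoluted and connecting tubule was followed by 7 markers (Pvalb, Trpm6, Calb1, Trpv5, S100g, Slc8a1 and Klk1). Pvalb was dim, with a row mean of 3.67 at percentile 20.5 of all rows, so its presence is not shown. The other markers lay at percentile 65.0 and above. The mean of the 7 ranged over 8.56 to 8.74 in FHS, 8.54 to 8.82 in CHS, 8.42 to 8.94 in FNS and 8.40 to 8.76 in CNS rats, and these ranges overlapped. Rat 11, of the CHS group, lay below its group mean for 9 of the 9 genes, by 0.26 on average, and the calls and larger values that turn on it are also given without it.

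Scnn1g and Scnn1b are next to each other on rat chromosome 1 and lie on the same strand. The 200 bases immediately before each annotated start are shown because both subunits deviated from their group means in the same rats, while of the pair only Scnn1g was called for the high-salt chow, a difference between them that was not tested (RefSeq, build GRCr8, plus strand, 5′ to 3′; capitals mark the GC box GGGCGG on either strand). The Scnn1g stretch is chr1:185736025-185736224 and the Scnn1b stretch is chr1:185861126-185861325.
Scnn1g: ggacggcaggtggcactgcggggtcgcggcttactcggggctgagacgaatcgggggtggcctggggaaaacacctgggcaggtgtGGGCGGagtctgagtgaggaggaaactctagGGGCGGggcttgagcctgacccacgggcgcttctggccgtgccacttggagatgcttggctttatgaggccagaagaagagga
Scnn1b: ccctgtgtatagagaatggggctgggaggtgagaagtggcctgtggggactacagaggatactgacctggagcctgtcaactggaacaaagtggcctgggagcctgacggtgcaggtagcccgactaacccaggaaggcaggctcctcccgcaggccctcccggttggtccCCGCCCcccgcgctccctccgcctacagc

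The Scnn1g stretch held 2 GC boxes and the Scnn1b stretch held 1, and their GC content was 64.5% and 65%. A GC box was present in 33.1% of all 33469 rat promoters of 300 bases in the table. The steroid hormone half-site AGAACA, found on either strand in 20.7% of those promoters, and the E-box CACGTG, found in 6.42%, were in neither of these promoters, nor in those listed for Slc12a3, Sgk1, Wnk1 and Wnk4. Such matches describe letters in a window and are not binding sites.

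The ENaC subunits Scnn1a and Scnn1g differed between the chows in opposite directions. Averaged over both fluids, Scnn1a was lower and Scnn1g higher on the high-salt chow, and Wnk1 was lower. These 3 of the 9 genes with a value (1 higher, 2 lower) passed the limma test at an adjusted p under 0.05 over all 36685 rows. Over all rows 13.3% passed, 6.49% higher and 6.77% lower, so calls are common in this comparison. The F test over the 4 groups called Scnn1a (adjusted p = 0.0289) and Scnn1g (adjusted p = 0.0404), beside 6.6% of all rows.

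Scnn1a, the α subunit that ENaC needs to conduct, had log2 values of 7.84, 8.04, 7.74 and 7.96 in FHS rats and 8.21, 8.13, 7.71 and 7.91 in CHS rats, against 8.43, 8.73, 8.27 and 8.51 in FNS rats and 8.29, 8.34, 8.05 and 8.43 in CNS rats. All FHS rats were below all FNS rats, whereas CHS and CNS rats overlapped. The high-salt difference averaged over both fluids was -0.44 (SE 0.092, limma adjusted p = 0.00562), or 0.737-fold. With fructose (FHS minus FNS) it was -0.59 (SE 0.13, limma adjusted p = 0.0179), one of 2 genes called there beside 5.36% of all rows. With water (CHS minus CNS) it was -0.29 (SE 0.13, limma adjusted p = 0.251), and 0 of the 9 genes passed there, beside 3.29% of all rows. The call with fructose was narrowly lost without rat 6, 8 or 15, with limma adjusted p-values between 0.0504 and 0.0553.

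Scnn1g, the γ subunit whose inhibitory tract prostasin removes, ran the other way. Its values were 8.998, 8.99, 9.04 and 9.18 in FHS rats and 8.89, 9.01, 8.34 and 8.82 in CHS rats, against 8.63, 8.76, 8.48 and 8.68 in FNS rats and 8.51, 8.53, 8.40 and 8.51 in CNS rats. FHS rats lay above all FNS and all CNS rats. In the CHS group rat 11 lay below all CNS rats and the other 3 lay above them. The averaged high-salt difference was 0.35 (SE 0.086, limma adjusted p = 0.0152), or 1.27-fold. It was 0.42 with fructose (SE 0.12, limma adjusted p = 0.0594) and 0.28 with water (SE 0.12, limma adjusted p = 0.241). Without rat 11 both passed, at 0.42 each (limma adjusted p = 0.0167 with fructose and 0.0345 with water).

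Scnn1b, the β subunit, had values of 8.97, 8.68, 8.97 and 9.01 in FHS rats and 9.08, 8.99, 8.50 and 8.95 in CHS rats, against 9.18, 9.22, 8.73 and 9.31 in FNS rats and 9.21, 9.14, 8.93 and 9.03 in CNS rats. The 4 groups overlapped. Its averaged high-salt difference was -0.20, with a 95% interval from -0.42 to 0.02 (limma adjusted p = 0.221). With water it was -0.19, and -0.069 without rat 11.

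Because the α and γ subunits differed between the chows in opposite directions, their difference within each rat separated the chows completely. Scnn1g minus Scnn1a was 1.16, 0.95, 1.30 and 1.22 in FHS rats and 0.68, 0.88, 0.63 and 0.91 in CHS rats, against 0.20, 0.02, 0.21 and 0.17 in FNS rats and 0.22, 0.18, 0.35 and 0.08 in CNS rats. All 8 rats on the high-salt chow (mean 0.97 ± 0.24, SD) were above all 8 on the normal-salt chow (0.18 ± 0.098). On the high-salt chow the fructose rats were above the water rats (1.16 ± 0.15 in FHS and 0.78 ± 0.14 in CHS, SD, n = 4 each), whereas on the normal-salt chow they overlapped (0.15 ± 0.086 in FNS and 0.21 ± 0.11 in CNS). The pair was chosen after its values were seen, so no test is given. The difference is taken within an array and does not depend on the array's median.

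**Figure D1:**
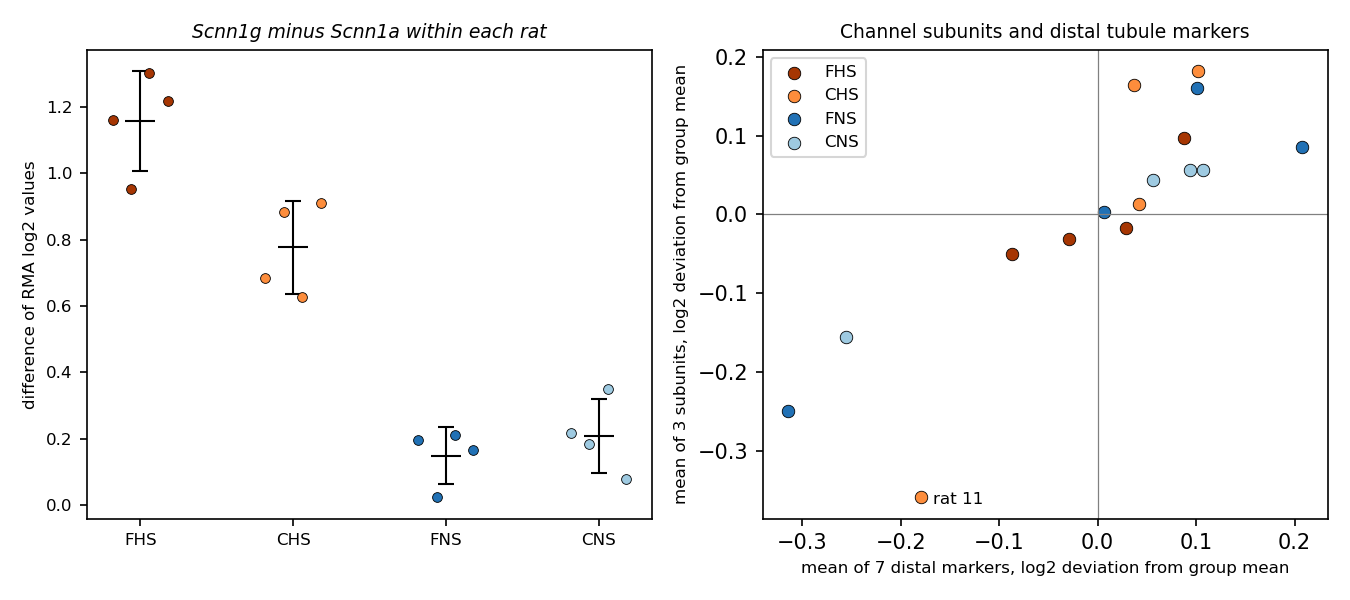
Left, the Scnn1g value minus the Scnn1a value (RMA log2) of each rat, by group, with the mean and SD of 4 rats. Right, the mean deviation of the 3 ENaC subunits from their group means against that of 7 distal tubule markers, 1 point per rat. The 8 rats on the high-salt chow (0.63 to 1.30) lie above the 8 on the normal-salt chow (0.02 to 0.35), and rats low in the markers are low in the subunits.

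The deviations of the subunits from their group means, by contrast, mostly ran together. Those of Scnn1b and Scnn1g had a Pearson r of 0.81 over the 16 rats (0.73 without rat 11), and those of Scnn1a and Scnn1g an r of 0.75 (0.69 without rat 11). The FHS group was an exception for the second pair, since rat 14 had the highest Scnn1a and the lowest Scnn1g value there. Pooled over the groups, Scnn1b and Scnn1g had r = 0.10 (permutation p = 0.706, adjusted p = 0.799 over 7 pairs) and a Spearman rho of 0.08 (permutation p = 0.762, adjusted p = 0.875). Without the 2 rats farthest from the Scnn1b median, the pooled r was -0.08. For Scnn1a and Scnn1g the pooled r was -0.29 (permutation p = 0.267, adjusted p = 0.406), and -0.55 without rat 11. Their Spearman rho was -0.29 (permutation p = 0.277, adjusted p = 0.485). These pooled values include the differences between the groups. The deviations of the subunits from their group means followed the mean of the 7 distal tubule markers, with r = 0.70 for Scnn1a, 0.88 for Scnn1b and 0.68 for Scnn1g. For Prss8, which the study describes as expressed in several nephron segments, r was -0.45, and for Sgk1 it was -0.13. The remaining genes had r = 0.71 (Wnk1), 0.49 (Slc12a3), 0.49 (Nr3c2) and 0.42 (Hsd11b2). Rats 3, 7, 11 and 14 were the lowest of their groups in these markers, and rats 3, 7 and 11 were also the lowest of their groups in each of the 3 subunits. These correlations are descriptions over rats that share groups and are given without a test. Taken relative to the marker mean of each rat, the averaged high-salt differences were -0.43 for Scnn1a (limma adjusted p = 0.00158) and 0.36 for Scnn1g (limma adjusted p = 0.00521), and Scnn1g then also passed with fructose (0.50, limma adjusted p = 0.0135). Only the genes described here were rescaled for this fit, and all other rows kept their values. The marker mean is not a fixed reference: S100g differed by 0.59 for the high-salt chow with fructose, and Klk1 by -0.31 averaged over both fluids.

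**Figure D2:**
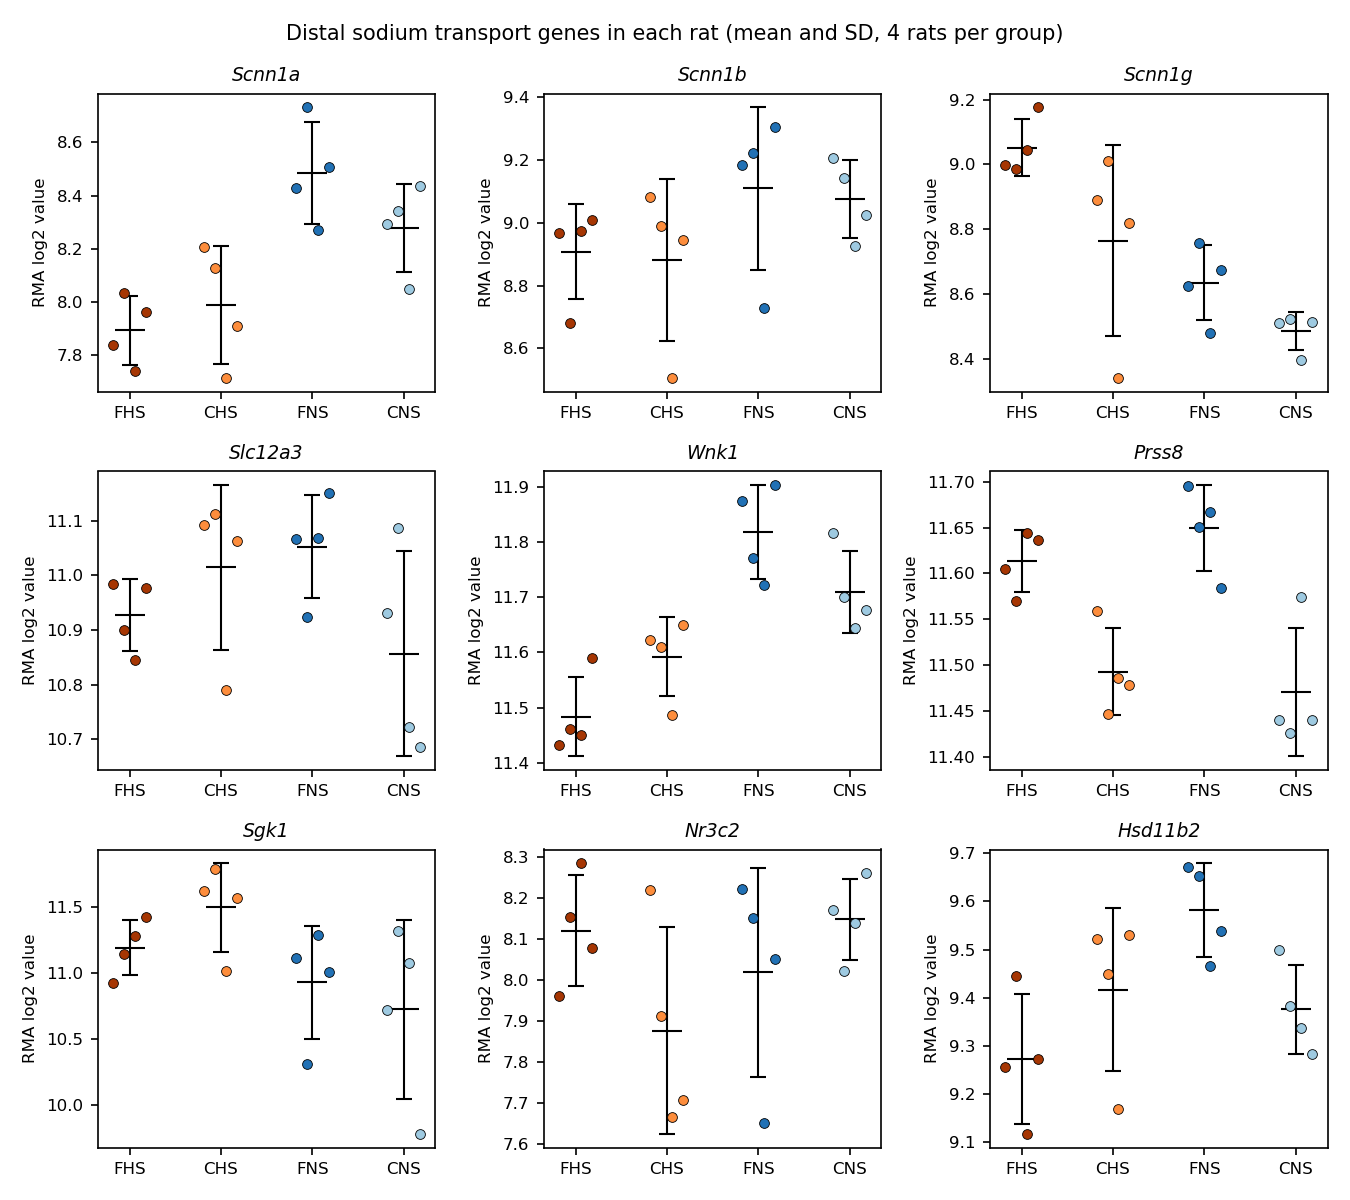
RMA log2 values of the 9 genes in each rat, by group, with the mean and SD of 4 rats. Scnn1a and Wnk1 sit lower and Scnn1g higher in the groups on the high-salt chow (FHS and CHS), and the 2 fructose groups (FHS and FNS) have the higher Prss8 means.

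Slc12a3, the NCC cotransporter, had values of 10.98, 10.90, 10.85 and 10.98 in FHS rats and 11.09, 11.11, 10.79 and 11.06 in CHS rats, against 11.07, 10.92, 11.07 and 11.15 in FNS rats and 10.93, 11.09, 10.72 and 10.69 in CNS rats. The groups overlapped in every comparison. Its high-salt difference was -0.13 with fructose (limma adjusted p = 0.537) and 0.16 with water (limma adjusted p = 0.465), and averaged 0.02 with a 95% interval from -0.14 to 0.17.

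Wnk1, a kinase at the head of the pathway that phosphorylates NCC, had values of 11.43, 11.46, 11.45 and 11.59 in FHS rats and 11.62, 11.61, 11.49 and 11.65 in CHS rats, against 11.88, 11.77, 11.72 and 11.90 in FNS rats and 11.82, 11.70, 11.64 and 11.68 in CNS rats. FHS rats were below all rats on the normal-salt chow, and CHS and CNS rats overlapped at 1 edge. The averaged high-salt difference was -0.23 (SE 0.056, limma adjusted p = 0.0154), and with fructose it was -0.33 (SE 0.08, limma adjusted p = 0.0257). With water it was -0.12 (limma adjusted p = 0.477). The call with fructose held in 14 of 23 alternatives. It was lost relative to the distal tubule markers (-0.25, limma adjusted p = 0.148), after quantile normalization (0.0682), with the 8 arrays of the comparison (0.0930), with the mean of both rows (0.0763) and without rat 5, 8, 13, 14 or 15 (0.0513 to 0.0794). Relative to the markers the averaged call held, barely (-0.22, limma adjusted p = 0.0494). A second, dimmer Wnk1 row had an averaged difference of -0.44 that was not called (SE 0.19, limma adjusted p = 0.136). These values do not separate the kidney-specific short form of Wnk1 from the full-length kinase.

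Sgk1 had the largest standard error of the 9 genes. Its values were 10.93, 11.14, 11.28 and 11.42 in FHS rats and 11.62, 11.78, 11.02 and 11.57 in CHS rats, against 11.11, 10.32, 11.29 and 11.01 in FNS rats and 10.72, 11.32, 11.08 and 9.78 in CNS rats. Of the CHS rats 3 were above every CNS rat, and the SD within CNS was 0.68. The high-salt difference was 0.77 with water (SE 0.29, limma adjusted p = 0.159) and 0.26 with fructose (limma adjusted p = 0.652), and the average of 0.52 did not pass (limma adjusted p = 0.105). Without rat 4, the lowest, the difference with water was 0.46 (limma adjusted p = 0.348).

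Neither the receptor nor the enzyme that guards it was called in any comparison. Nr3c2, the mineralocorticoid receptor, had values of 7.96, 8.15, 8.29 and 8.08 in FHS rats and 8.22, 7.91, 7.67 and 7.71 in CHS rats, against 8.22, 8.15, 7.65 and 8.05 in FNS rats and 8.17, 8.02, 8.14 and 8.26 in CNS rats. Its averaged high-salt difference was -0.09 with a 95% interval from -0.29 to 0.12, and -0.050 without rat 11. Hsd11b2 had values of 9.26, 9.45, 9.12 and 9.27 in FHS rats and 9.52, 9.45, 9.17 and 9.53 in CHS rats, against 9.67, 9.65, 9.47 and 9.54 in FNS rats and 9.50, 9.38, 9.34 and 9.28 in CNS rats. FHS rats were below all FNS rats, with a difference of -0.31 (SE 0.10, limma adjusted p = 0.0913), and with water the difference was 0.04 (0.12 without rat 11). The Hsd11b2 difference with fructose passed where each array was centred on its median (limma adjusted p = 0.0318) and where dim rows were left out (limma adjusted p = 0.0496).

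**Figure D3:**
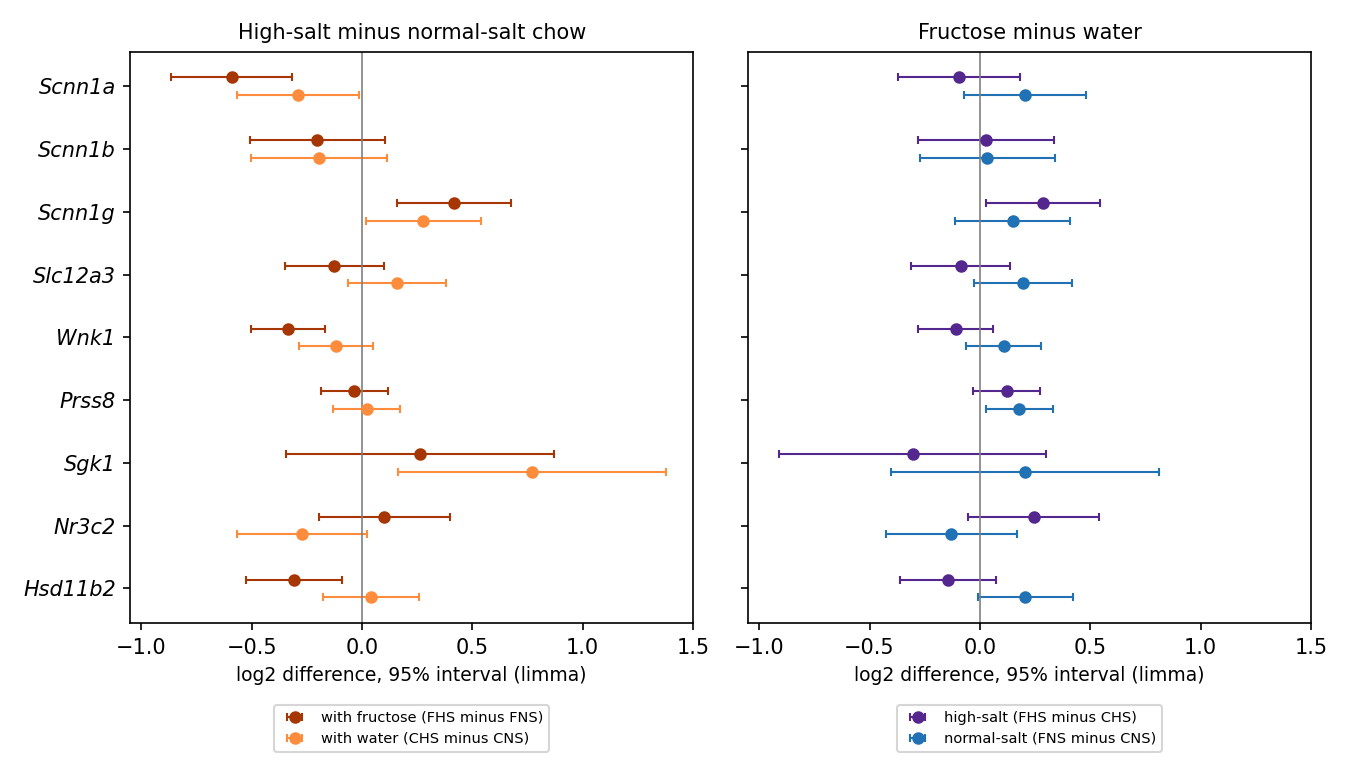
limma differences (log2) of the 9 genes with 95% intervals, for the high-salt chow with fructose and with water (left) and for fructose on the high-salt and on the normal-salt diet (right). The high-salt intervals of Scnn1a lie below 0 and those of Scnn1g above 0 with both fluids, while the fructose intervals of 7 genes include 0 on both diets.

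Fructose gave no call among the 9 genes by the adjusted test on either diet or averaged, where 0% of all rows passed on the normal-salt diet, 0.00273% on the high-salt diet and 0.00273% averaged. At an unadjusted p under 0.05, 1 of the 9 genes passed on the normal-salt diet (4.15% of all rows), 1 on the high-salt diet (9.62% of all rows) and 2 averaged (7.44% of all rows). By the methods' analysis of variance, run on the 8 rats of a diet and read at an unadjusted p under 0.05, Prss8 and Hsd11b2 passed on the normal-salt diet (2 of the 9 genes, 5.14% of all rows) and Prss8 on the high-salt diet (1 of the 9 genes, 7.71% of all rows). None of them passed it after adjustment over all rows. Without rat 11, which is in the water group of the high-salt diet, most fructose differences on that diet moved by over 1.5 times: Scnn1a to -0.19, Scnn1b to -0.099, Slc12a3 to -0.16, Sgk1 to -0.47, Hsd11b2 to -0.23 and Scnn1g to 0.14, against -0.095, 0.027, -0.088, -0.31, -0.14 and 0.29 with it.

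Among the 9 genes, only Prss8, the channel-activating protease, had fructose rats apart from water rats within a diet. It had values of 11.60, 11.57, 11.64 and 11.64 in FHS rats against 11.56, 11.45, 11.49 and 11.48 in CHS rats, and 11.69, 11.65, 11.67 and 11.58 in FNS rats against 11.44, 11.43, 11.57 and 11.44 in CNS rats. On both diets all rats given fructose were above all rats given water, by narrow gaps. The share of all rows separated in this way was not counted, so the separation is a description of the values. The differences were 0.12 on the high-salt diet (SE 0.071, limma adjusted p = 0.608) and 0.18 on the normal-salt diet (SE 0.071, limma adjusted p = 1.00), of which the one on the normal-salt diet was under 0.05 before adjustment by limma and both were by the methods' analysis of variance. The averaged difference was 0.15 (SE 0.05, limma adjusted p = 0.514), or 1.11-fold, and was also under 0.05 before adjustment. For the high-salt chow the averaged Prss8 difference was -0.0067 (95% interval -0.11 to 0.10).

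Scnn1g was 0.29 higher in FHS than in CHS rats (SE 0.12, limma adjusted p = 0.482, under 0.05 before adjustment), but 0.14 higher without rat 11 (limma adjusted p = 0.740), and 0.15 higher in FNS than in CNS rats (limma adjusted p = 1.00). The remaining genes differed by fructose between -0.31 and 0.24 on the high-salt diet and between -0.13 and 0.21 on the normal-salt diet, none past the adjusted threshold. On the normal-salt diet 8 of the 9 differences were above 0 (median 0.18, all rows -0.001), whereas on the high-salt diet 4 of the 9 were (median -0.09, all rows 0.03). Without rat 11 the median on the high-salt diet was -0.14. The medians of the 7 distal tubule markers had the same signs, with none called: 5 of 7 were above 0 on the normal-salt diet (median 0.16), and 5 of 7 below 0 on the high-salt diet (median -0.21). The others were Klk1 (-0.20) and S100g (-0.09) on the normal-salt diet, and S100g (0.71) and Pvalb (0.07) on the high-salt diet. The group mean of the 7 was 8.73 in FNS against 8.65 in CNS rats, and 8.65 in FHS against 8.72 in CHS rats. Relative to the marker mean of each rat, the median of the 9 genes was 0.099 on the normal-salt diet and -0.019 on the high-salt diet.

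The difference of the fructose change between the diets tests that contrast directly, and 0 of the 9 genes, like 0% of all rows, passed it. Of the 9 differences, 7 were below 0 (median -0.22, all rows 0.03), as were 6 of the 7 distal tubule markers (median -0.30). Relative to the marker mean of each rat the median of the 9 genes was -0.069, and the part of the markers was not tested further. The largest was that of Sgk1 (-0.51, SE 0.40, limma adjusted p = 0.854). Hsd11b2 had the one that passed an unadjusted p under 0.05: fructose differed by -0.14 on the high-salt diet and 0.21 on the normal-salt diet, a difference of -0.35 (SE 0.14, limma adjusted p = 0.808). Scnn1a (-0.30), Slc12a3 (-0.28) and Wnk1 (-0.22) had smaller ones than Hsd11b2 in the same direction, and Nr3c2 had one of 0.37, all with limma adjusted p-values between 0.824 and 0.841.

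The Characteristic Direction, the multivariate method used in the study, gives each row a DE value, its signed coordinate in 1 direction of unit length that separates 2 groups. The study reads the square of a DE value as the fraction that a row contributes. If all rows contributed equally, each DE value would have a size of 0.00522. Computed on linear values, so that bright rows weigh more, the fructose vector of the high-salt diet gave Prss8 a DE value of 0.0214 (rank 333 of 36685 by size) and that of the normal-salt diet 0.0384 (rank 117). Wnk1 had -0.0191 (rank 394) on the high-salt diet and 0.0279 (rank 247) on the normal-salt diet, and Slc12a3 had -0.0132 (rank 731) on the high-salt diet and 0.0253 (rank 301) on the normal-salt diet. Sgk1 had -0.0500 (rank 66) on the high-salt diet and 0.0274 (rank 263) on the normal-salt diet. All 4 genes kept their sign in each vector when any 1 of its 8 rats was left out, while Sgk1 ranged over 0.0032 to 0.0413 on the normal-salt diet. With log2 values, where the level of a row no longer multiplies its differences, all 4 genes ranked further down: on the high-salt diet at 16157 for Prss8, 21605 for Wnk1, 22010 for Slc12a3 and 5742 for Sgk1, and on the normal-salt diet at 9082 for Prss8, 16843 for Wnk1, 8524 for Slc12a3 and 7234 for Sgk1. In the salt vectors, Sgk1 had DE values of 0.0334 with fructose (rank 154) and 0.0596 with water (rank 41), Wnk1 -0.0243 with fructose (rank 293) and -0.0116 with water (rank 985), and Scnn1a, a dimmer row, -0.00574 with fructose (rank 2138) and -0.00398 with water (rank 3109). With log2 values these ranks were 6198 and 936 for Sgk1, 8727 and 20414 for Wnk1, and 1903 and 6198 for Scnn1a, with fructose and with water in turn. Each salt vector shares its groups with the fructose vectors, so these values are set side by side and not compared.

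Of 40 further genes of the same pathways, 36 had a row of their own. By the high-salt difference averaged over both fluids 6 were higher and 6 lower at an adjusted p under 0.05, beside the 6.49% and 6.77% of all rows given above.

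**Figure D4:**
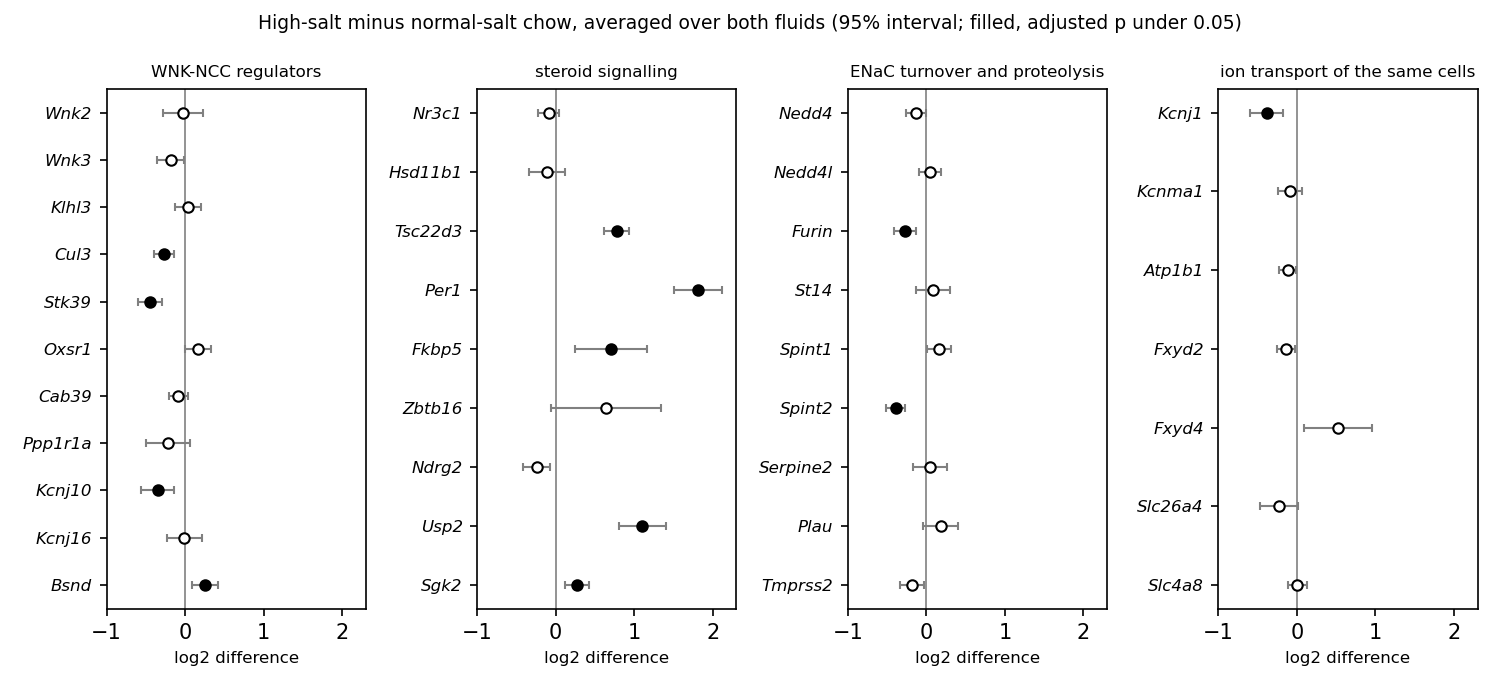
limma differences (log2) with 95% intervals for the high-salt minus the normal-salt chow, averaged over both fluids, for 36 further genes in 4 lists. Filled points passed an adjusted p under 0.05. All 5 filled points of the steroid list are above 0, led by Per1 (1.81), and Stk39 (-0.45) and Spint2 (-0.39) are the lowest of their lists.

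In the list of aldosterone and glucocorticoid signalling, 5 of 9 genes with a value were called with the high-salt chow, all higher, beside 6.49% of all rows. The other 4 were not called. The list was chosen with earlier results known and was not tested as a set. Per1, a clock gene that steroids also induce, had values of 8.25, 7.97, 7.88 and 7.89 in FHS rats and 8.06, 8.01, 7.84 and 8.02 in CHS rats, against 5.73, 6.11, 5.87 and 5.88 in FNS rats and 6.07, 7.28, 6.19 and 6.30 in CNS rats. The chows did not overlap, and the averaged difference was 1.81 (SE 0.14, limma adjusted p = 3.77e-06). Tsc22d3, the leucine zipper protein GILZ, had values of 8.14, 8.32, 8.45 and 8.29 in FHS rats and 8.32, 8.38, 8.18 and 8.03 in CHS rats, against 7.39, 7.50, 7.71 and 7.38 in FNS rats and 7.36, 7.63, 7.53 and 7.43 in CNS rats. Its averaged difference was 0.78 (SE 0.077, limma adjusted p = 2.27e-05). Usp2, a ubiquitin protease, was higher by 1.11 (limma adjusted p = 0.000197), Fkbp5, a co-chaperone of steroid receptors, by 0.70 (limma adjusted p = 0.0438) and Sgk2, a kinase related to Sgk1, by 0.27 (limma adjusted p = 0.0241). The chows overlapped in Fkbp5 and Sgk2. Fkbp5 ranged over 8.15 to 8.82 in FHS and 8.20 to 8.99 in CHS rats, against 7.25 to 8.34 in FNS and 7.23 to 8.40 in CNS rats. The glucocorticoid receptor Nr3c1 differed by -0.09 (limma adjusted p = 0.388), Hsd11b1, which regenerates active glucocorticoid, by -0.11 (limma adjusted p = 0.529), Ndrg2 by -0.24 (limma adjusted p = 0.0606) and Zbtb16 by 0.64 (limma adjusted p = 0.222). Deviations of Sgk1 from its group means had r = 0.43 with those of Tsc22d3 and r = 0.22 with those of Per1 over the 16 rats. No pooled r is given for these pairs, because the chows form separate clusters in Per1 and Tsc22d3.

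**Figure D5:**
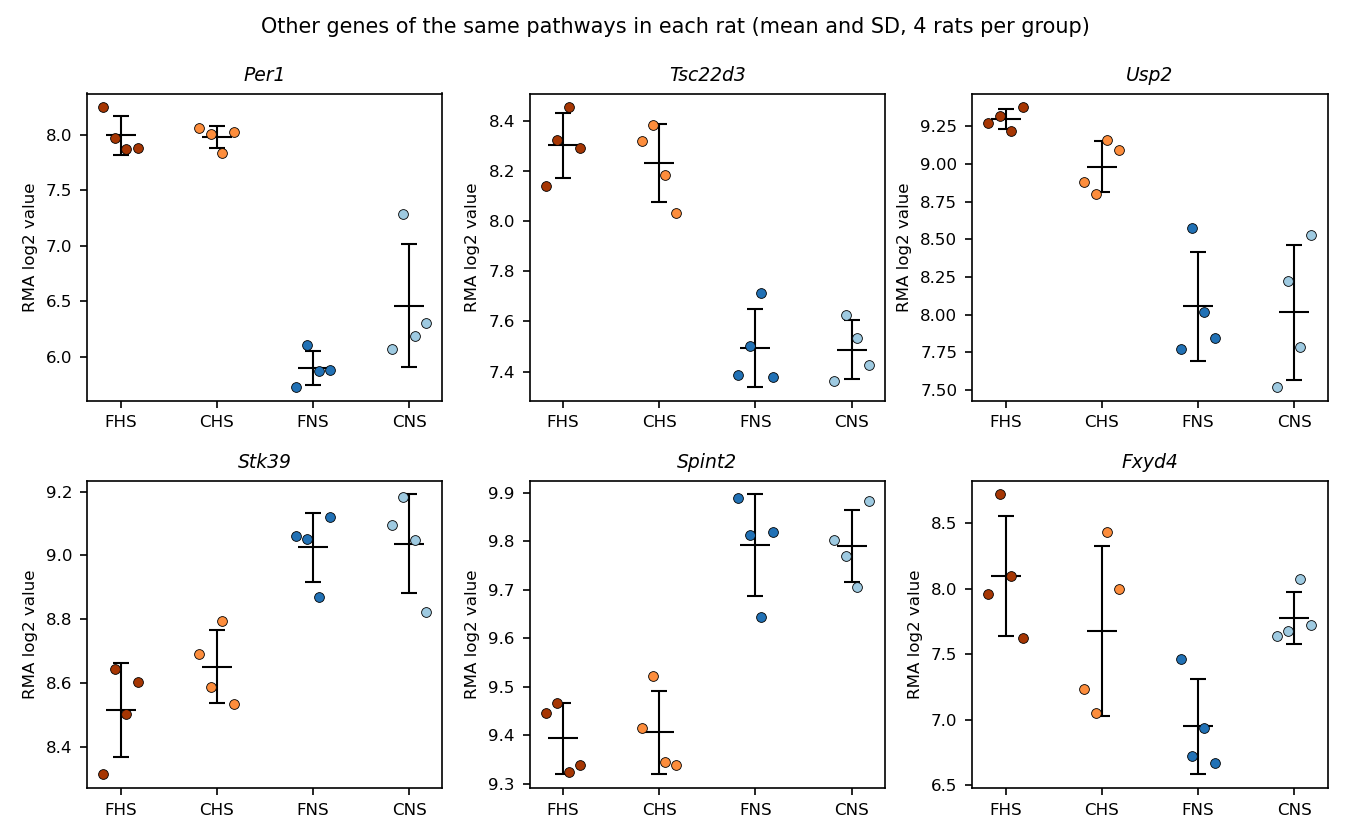
RMA log2 values of 6 further genes in each rat, by group, with the mean and SD of 4 rats. FHS and CHS rats are above FNS and CNS rats in Per1, Tsc22d3 and Usp2 and below them in Stk39 and Spint2, without overlap between the chows, whereas Fxyd4 has its lowest mean in FNS.

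In the list of WNK-NCC regulators, 1 of 11 genes with a value was higher and 3 were lower, beside 6.49% and 6.77% of all rows. Stk39, which encodes SPAK, had values of 8.32, 8.65, 8.50 and 8.60 in FHS rats and 8.69, 8.59, 8.79 and 8.53 in CHS rats, against 9.06, 9.05, 8.87 and 9.12 in FNS rats and 9.10, 9.18, 9.05 and 8.82 in CNS rats. The chows did not overlap, and the averaged difference was -0.45 (SE 0.074, limma adjusted p = 0.00125). Cul3, the scaffold of the ubiquitin ligase that degrades WNK kinases, was lower (-0.27, limma adjusted p = 0.00922), and its adaptor Klhl3 differed by 0.04 (limma adjusted p = 0.799). Kcnj10, a basolateral potassium channel of the distal convoluted tubule, was lower (-0.35, limma adjusted p = 0.0261), and Bsnd, the barttin subunit of basolateral chloride channels, was higher by 0.26 (limma adjusted p = 0.0395).

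Of 9 genes that cleave, protect or remove ENaC, 2 were lower and 0 higher, beside 6.77% and 6.49% of all rows. Spint2, an inhibitor of serine proteases such as prostasin, had values of 9.45, 9.47, 9.32 and 9.34 in FHS rats and 9.42, 9.52, 9.35 and 9.34 in CHS rats, against 9.89, 9.81, 9.64 and 9.82 in FNS rats and 9.80, 9.77, 9.71 and 9.88 in CNS rats. The chows did not overlap, with an averaged difference of -0.39 (SE 0.059, limma adjusted p = 0.000665). Furin, which cleaves the α and γ subunits inside the cell, was lower (-0.27, limma adjusted p = 0.0154). Nedd4l, the ligase that marks ENaC for removal, differed by 0.05 with a limma adjusted p of 0.693.

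Among 7 genes for ion transport in the same cells, Kcnj1, the ROMK potassium channel, was lower (averaged difference -0.38, limma adjusted p = 0.0178). Fxyd4, a regulator of the sodium pump in the collecting duct, had values of 7.96, 8.72, 8.10 and 7.62 in FHS rats and 7.23, 7.05, 8.43 and 7.99 in CHS rats, against 7.47, 6.73, 6.94 and 6.67 in FNS rats and 7.64, 7.67, 8.07 and 7.72 in CNS rats. The FNS rats were below all FHS and all CNS rats. Its high-salt difference was 1.15 with fructose (SE 0.29, limma adjusted p = 0.0317) and -0.10 with water (limma adjusted p = 0.897), and the difference between them was 1.25 (SE 0.41, limma adjusted p = 0.808). The other 9 of the 36 genes that were under 0.05 before adjustment in some comparison, and were called in none, are the kinase Wnk3, Cab39 (a partner of SPAK), Ppp1r1a, Ndrg2, Spint1, Tmprss2, the sodium pump subunits Atp1b1 and Fxyd2, and the chloride-bicarbonate exchanger Slc26a4. Their averaged high-salt differences lay between -0.24 for Ndrg2 and 0.16 for Spint1.

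Some markers of other cells were called for the averaged high-salt difference, beside 13.3% of all rows. Of 5 principal cell markers 1 was called, the water channel Aqp2, which was higher by 0.86 (limma adjusted p = 8.51e-05), while Gata3 differed by -0.29 (limma adjusted p = 0.0703) and Aqp3 by -0.03 (limma adjusted p = 0.870). Their summed level, as the mean of the 5, was 8.45 to 8.80 in FHS and 8.65 to 8.83 in CHS rats, against 8.38 to 8.55 in FNS and 8.52 to 8.65 in CNS rats. Of 6 intercalated cell markers, Foxi1 (-0.29, limma adjusted p = 0.0201) and Atp6v1g3 (-0.43, limma adjusted p = 0.0248) were lower. Of the other cell types, the endothelial cadherin Cdh5 was lower (-0.63, limma adjusted p = 0.00134) as 1 of 2 endothelial markers with a value, and the complement gene C1qa was higher (0.51, limma adjusted p = 0.0110) as 1 of 4 macrophage markers. The other 3 macrophage markers were below 0, and the median of the 4 was -0.13. Both endothelial markers were below 0. None of 6 proximal tubule markers (all 6 above 0, median 0.084), 4 thick ascending limb markers and 2 podocyte markers was called. Of 7 distal convoluted and connecting tubule markers, none was called for the averaged difference. S100g was the one called with fructose (0.59, limma adjusted p = 0.0413), beside 5.36% of all rows. Their part in the differences of the ENaC subunits and Wnk1 was not tested beyond the values relative to the distal markers given above.

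Over the 16 rats, the rows most like each gene by Pearson r, among 11602 brighter rows with 1 symbol, differed from gene to gene. The most alike was Myo19 for Scnn1a (r = 0.89), Tmem52b for Scnn1b (0.92), Adck5 for Scnn1g (0.92), St6galnac5 for Slc12a3 (0.86) and Cldn8 for Wnk1 (0.90). Cldn8 encodes a tight junction protein of the distal nephron. For Prss8 it was Adgrg1 (0.79), for Sgk1 Ilk (0.87), for Nr3c2 Ptpro (0.85) and for Hsd11b2 Rap1gds1 (0.81). These are the largest of many correlations and are given as a description without a test. Of the other pairs set for comparison, the pooled r was 0.37 for Slc12a3 with Wnk1, 0.28 for Prss8 with Scnn1g and 0.07 for Nr3c2 with Hsd11b2 (permutation p between 0.155 and 0.799, adjusted p between 0.362 and 0.799).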

How the data were processed

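Per the study's methods, the authors summarized the 16 arrays with the RMA algorithm of Affymetrix Expression Console, and deposited log2 values per TranscriptClusterID. The rest was computed here. Genes were named from the platform's probe annotation, using rows with 1 symbol, and several rows of a gene were reduced to the brightest. Group means over all 16 arrays were fitted to every row (limma 3.58.1, R 4.3.3, empirical Bayes), with Benjamini and Hochberg adjustment over 36685 rows and calls under 0.05. The fit was checked on simulated data. Named were all listed genes with a value, and of the further pathway genes those with an unadjusted p under 0.05 in a comparison. The rest of the steroid list was named too, as were a few others near 0 chosen after their values were seen. Characteristic Direction vectors used principal components holding 95% of the variance and a regularization of 1. Correlations used 100000 resamples, and of 8 planned pairs that of Slc12a3 with Wnk4 was not run. The members and lists were chosen with earlier results of these data known. Precision is limited by 4 arrays per group. Alternatives were quantile normalization, median centring, leaving out dim rows, an intensity trend, the 8 arrays of a comparison, the methods' ANOVA, the mean of a gene's rows, values relative to distal markers, and leaving out each rat.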

Additional observations from a re-analysis of the deposited data

Results flagged for a closer look

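Each of the 36 sets of 4 rats (9 genes in 4 groups) was checked for a rat far from the other 3, by the gap to its nearest neighbour as a share of the whole range, against Dixon's 95% limit for 4 values. Chance flags about 1 in 20 such sets, and 4 were flagged. Scnn1b of rat 14 was the lowest of FHS (8.68, gap share 0.874). Slc12a3 of rat 11 was the lowest of CHS (10.79, gap share 0.849). In CNS, rat 3 was the lowest in Scnn1g (8.40, gap share 0.881) and the highest in Prss8 (11.57, gap share 0.906). Rats 3, 11 and 14 were also the lowest of their groups in the mean of the 7 distal tubule markers (8.40, 8.54 and 8.56).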

How the results depend on the processing

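No paired analysis was possible because the groups share no replicate numbers. The averaged high-salt calls of Scnn1a, Scnn1g and Wnk1 held in every alternative run for them (21, 21 and 22). The count of genes called for the high-salt chow with fructose was 2 (Scnn1a and Wnk1), and was 4 with dim rows left out, 3 with arrays centred on their medians, 3 with an intensity trend, 2 after quantile normalization and 2 relative to distal markers (Scnn1a and Scnn1g in both, without Wnk1), 1 with the 8 arrays of the comparison, 1 with the mean of a gene's rows and 0 to 3 with a rat left out. With water it was 0, and 0 to 1 with a rat left out. The F test called 2, then 1 after quantile normalization and 0 to 2 with a rat left out. At an adjusted p under 0.05 fructose gave 0 calls in every alternative run. The methods' analysis of variance passed 2 genes on the normal-salt and 1 on the high-salt diet at its own unadjusted threshold. Of 320 values of single genes under alternatives other than leaving out a rat, 300 kept their direction and side of the threshold. Signs turned in uncalled differences, most of them near 0, the exception being Sgk1 for fructose on the normal-salt diet (0.20, and -0.11 without rat 4). Under quantile normalization the high-salt difference of Prss8 was 0.020 with fructose and 0.022 averaged. With arrays centred on their medians, Scnn1b was -0.045 for fructose on the high-salt diet, Prss8 -0.00092 for high-salt with water and Slc12a3 -0.033 for high-salt averaged. Relative to distal markers, Scnn1b was -0.046 for fructose on the normal-salt diet, Hsd11b2 -0.024 and Prss8 -0.043 for high-salt with water, and Prss8 0.048 with fructose and 0.0026 averaged. With a rat left out, fructose on the normal-salt diet ranged over -0.031 to 0.16 for Scnn1b and -0.11 to 0.41 for Sgk1, fructose on the high-salt diet over -0.099 to 0.10 for Scnn1b, high-salt with fructose over -0.022 to 0.17 for Nr3c2, and high-salt averaged over -0.012 to 0.054 for Slc12a3 and -0.018 to 0.011 for Prss8. The causes were not tested.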
